A study of Canis lupus familiaris with 17 samples.

Results

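The 44 features of the deposited dog count table whose IDs begin with chr21 and end in a running number were followed through 17 olfactory epithelium libraries. They are all the features with that ID pattern, from 32912 in all, of which 208 carry a chromosome and a running number in place of an Ensembl-style gene ID. The group was proposed with earlier results of these data known. The running numbers go from that of chr21_14 to that of chr21_176, with gaps. The 17 domestic dogs fall into the weight classes Below_10 (8 dogs, 5 to 9.79 kg) and Over_10 (9 dogs, 10.21 to 44 kg), and each was also labelled scent 0 or scent 1, a code that the labels leave unexplained. By both labels, 6 Below_10 dogs had scent code 0 (Pomeranian, Jack Russel Terrier, Miniature Schnauzer, Chinese Crested, Poodle, rat terrier) and 2 had scent code 1 (spelled Dachsund and Dachshund). Among the Over_10 dogs, 4 had scent code 0 (Doberman pinscher, Cocker Spaniel, Bulldog terrier, English pointer) and 5 had scent code 1 (Beagle, German_shepherd_1b, Basset hound, and 2 samples both labelled Labrador_Retriever_1, of age 0.5 and 6). German_shepherd_1b is called the German shepherd below, and the Labrador_Retriever_1 samples the Labradors. No treatment is labelled, most breeds are represented by 1 dog, and age, whose unit is not given, ran from 0.5 to 14.

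Chromosome 21 of the dog holds most of its class I odorant receptor genes. Odorant receptors are G protein-coupled receptors of the cilia of olfactory sensory neurons, each mature neuron is known to express 1 receptor gene, and class I, the fish-like class, is the older of both classes and sits in 1 large cluster in mammals. In a whole epithelium the RNA of a receptor gene therefore comes from the few neurons that chose it, and in such bulk tissue fewer neurons of a kind and less receptor RNA per neuron cannot be told apart. In the RefSeq gene table of assembly UU_Cfam_GSD_1.0, chromosome 21 carries 199 receptor genes, 163 of them of the class I families, and the other chromosomes carry 0 of those families. None of the 44 IDs occurs in that table (0 matches), so the features are called by their IDs, and whether each of them is a receptor gene was not tested. The labels and files do not say that the running numbers follow position on the chromosome. Receptor genes have near-identical copies, between which the authors' counting could split or lose reads, so the value of any single feature is uncertain by an unknown amount. Gene names for the Ensembl-style IDs were not used here, so the tissue label was not checked against neuronal or epithelial markers.

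Library totals ran from 10536639 to 31637925 reads. Levels are given as CPM, reads relative to the library total after TMM scaling (a trimmed mean over features), not per length, so they compare dogs and not features. The TMM factors of the Dachsund (0.518, RNA integrity number 5.9), the Pomeranian (0.727) and the Cocker Spaniel (0.757) stood below those of the other 14 dogs, and a low factor raises CPM. In 4 libraries the name ends in a first-replicate mark, namely the Dachsund, the Cocker Spaniel, the Beagle and the Labrador of age 0.5, and the protocol says that RNA of 4 samples, not named there, was extracted in 2 batches. The labels give 1 library per sample and number no animals, and both Labrador samples bear the same breed label at different ages and weights, so whether they are separate dogs is not stated. They are counted as 2 dogs here, and p-values measure the spread between samples. Leaving out either one is among the settings below.

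The chromosome 21 features were present at low levels in every small dog, and most of them had few or no reads in most large dogs. All 44 together drew 10094 reads, 7459 of them from the 8 Below_10 dogs. Their summed level had its lowest, median and highest values at 26.9, 44.4 and 342 CPM in Below_10 dogs and at 1.65, 4.46 and 56.8 CPM in Over_10 dogs. The lowest small dog was the rat terrier and the highest the Pomeranian, whose level was over that of every other dog. In the Over_10 class the Doberman pinscher was lowest, and the next values up to 11.4 CPM belonged to the German shepherd, the Bulldog terrier, the English pointer, the Basset hound, the Labrador of age 6 and the Beagle. The Cocker Spaniel with 39.7 CPM and the Labrador of age 0.5 with 56.8 CPM lay within the Below_10 range, so the classes overlapped through these 2 dogs. The mean log2 level, with 0.5 CPM added, was 5.85 ± 1.19 (SD, n = 8) in Below_10 and 2.91 ± 1.66 (n = 9) in Over_10 dogs, a difference of -2.94. No p is given for this sum, because the features were proposed as a group with results of these data known.

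On both sides of the 10 kg line the levels did not run with weight alone. The Poodle of 9.79 kg had 38.7 CPM and the Beagle of 10.21 kg had 11.4 CPM, whereas the Cocker Spaniel of 12.247 kg and the young Labrador of 20.4 kg again reached Below_10 levels. Both of these Over_10 dogs carry the first-replicate mark, and their totals were 29240086 and 20809138 reads, the highest of their class. The Beagle carries the same mark at 12664228 reads and was low. Without the 4 marked libraries the 6 remaining Over_10 dogs summed to 3.44 ± 1.23 CPM (SD) and the 7 remaining Below_10 dogs to 86.5 ± 114 CPM. The Pomeranian alone set much of the Below_10 mean, which was 85.1 ± 106 CPM with it and 48.4 ± 22.3 CPM (n = 7) without it. The part of the library mark, the depth and the TMM factor in these levels was not tested.

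**Figure D1:**
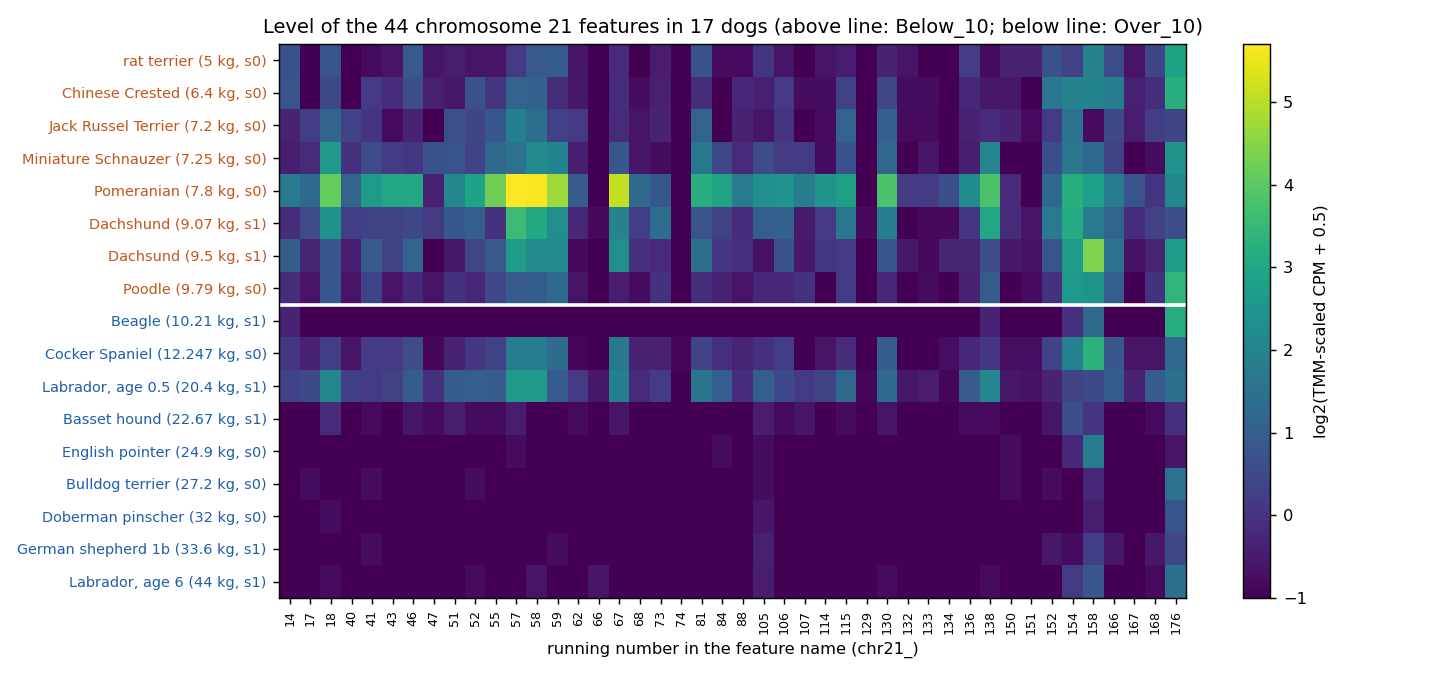
Level of the 44 chromosome 21 features (columns, by running number) in 17 dogs (rows, by weight class and body weight, s0 and s1 giving the scent code), as log2 of TMM-scaled CPM plus 0.5. Below the white line, most Over_10 rows are dark apart from chr21_154, chr21_158 and chr21_176, while the Cocker Spaniel and the Labrador of age 0.5 look like the Below_10 rows.

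The classes also differed in how many features had any reads at all, counted here at the full depth of each library. With so few reads per feature a lower level alone can leave a count of 0, so absence and a low level are not told apart. In the Doberman pinscher 40 of the 44 features had 0 reads, in the Beagle 39, in the English pointer 37, in the Bulldog terrier 36, in the German shepherd 35 and in the Labrador of age 6 33. The Basset hound had 22 at 0 reads, the Cocker Spaniel 5 and the Labrador of age 0.5 only 1. The Below_10 dogs had between 2 (Dachshund) and 9 (rat terrier) features at 0. A count of 0 in an Over_10 library allows up to 3 reads, which is 0.127 to 0.257 CPM by library, and this limit covers counting error only. The median over the 9 Over_10 dogs was 0 CPM for 34 of the 44 features, against 21.7% of the 27482 features with any read in the table. The median was lower in Over_10 than in Below_10 dogs for 40 of the 44, against 42.4% of all these features. Among features named in the same way it was lower for 39 of 45 on chromosome 18 and 15 of 16 on chromosome 20. On chromosome 5 it was lower for 12 of 12, so a lower median was not particular to chromosome 21.

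With every library thinned to 10536639 reads, a feature counted as detected in a dog at 5 or more reads. By this measure the Below_10 dogs had 16 (rat terrier) to 37 (Pomeranian) of the 44 features, with a mean of 24.3 ± 7.80 (SD, n = 8). The Over_10 dogs had a mean of 7 ± 10.8 (n = 9) and a median of 3. Of these dogs, the Doberman pinscher, the Bulldog terrier and the English pointer each had 1 feature detected, the German shepherd 2, and the Beagle, the Basset hound and the Labrador of age 6 each 3. The Cocker Spaniel had 16, as many as the rat terrier, and the Labrador of age 0.5 had 33.

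Across the members, 40 of the 44 were detected in at least 1 dog and 4 in none (chr21_66, chr21_74, chr21_129 and chr21_151, with 7, 1, 2 and 15 reads in all dogs together). In Over_10 dogs 10 features were detected nowhere and 31 in 1 or 2 dogs. Only chr21_154, chr21_158 and chr21_176 were detected in more, namely in 5, 7 and 8 of the 9, and they were picked out here after their values had been seen. In Below_10 dogs 7 features were detected in all 8 dogs, namely chr21_18, chr21_57, chr21_58, chr21_59, chr21_154, chr21_166 and chr21_176. Reads in every one of the 17 dogs were found for 2 features, chr21_158 and chr21_176.

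The features at both ends of the number range differed from each other. At the first number, chr21_14 had its lowest, median and highest levels at 0.236, 0.769 and 2.98 CPM in Below_10 dogs, whereas 6 of the 9 Over_10 dogs had 0 reads and the highest had 0.765 CPM. At the last number, chr21_176 was present in all dogs, with 0.819, 5.56 and 10.1 CPM in Below_10 and 0.168, 1.90 and 8.35 CPM in Over_10 dogs. Thus chr21_14 was mostly missing from large dogs and chr21_176 was not.

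The weight class comparison asks which of these transcripts differ between small and large dogs. Counts were tested with edgeR's quasi-likelihood test on the whole table, in a model with batch, scent code and weight class. Of the 44 features, 10 passed the low-count filter, all 10 had a fitted value below 0 in Over_10 dogs (median log2 change -2.71), and 2 of them, chr21_18 and chr21_81, were called lower at an adjusted p of 0.05, with 0 called higher. In the table as a whole 3.61% of the 16202 tested features were called lower and 5.33% higher, 47.8% were below 0, and the median change was 0.03. The 10 are the more abundant features, and several passed the filter mainly through the Below_10 dogs, in which they are high. The filter could thus favour values below 0, and their count is not one over all 44.

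Feature chr21_18 had 0.927, 1.52 and 17.0 CPM as lowest, median and highest values in Below_10 dogs, and 4 of the 9 Over_10 dogs had 0 reads. The other Over_10 dogs had 0.0759 CPM (Labrador of age 6), 0.0785 CPM (Doberman pinscher), 0.365 CPM (Basset hound), 0.678 CPM (Cocker Spaniel) and 3.74 CPM (Labrador of age 0.5). Thus all but the young Labrador lay below every small dog. Its log2 change in the fit was -3.55 ± 0.99 (SE), with an edgeR adjusted p of 0.0453. Within batches 2, 3, 4 and 6, which hold both classes, the difference in mean log2(CPM + 0.5) was -2.18, -1.51, -3.41 and -1.45.

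Feature chr21_81 had 0.417, 1.43 and 8.95 CPM in Below_10 dogs. It had 0 reads in 7 of the 9 Over_10 dogs, 0.768 CPM in the Cocker Spaniel and 2.51 CPM in the Labrador of age 0.5, both within the range of the small dogs. Its log2 change in the fit was -3.34 ± 0.79 (SE), with an edgeR adjusted p of 0.0290 and within-batch differences of -1.72, -0.88, -1.72 and -1.29 in the same batches. With 7 libraries at 0 the size of this change depends on the prior count of the fit, and without the Cocker Spaniel it was -6.23. The Labrador of age 0.5 is the only dog of batch 5, so the batch term leaves it no weight in either estimate. Batch 1 holds only the Dachsund and the Pomeranian, both Below_10. With the batch term, these dogs bear on the weight class estimates only through the scent term and the estimate of spread.

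The number of calls moved with single dogs. Without the Cocker Spaniel 7 of 9 tested features were called lower (5.6% of all features), without the Labrador of age 0.5 or the Basset hound 2, and without any 1 of 7 other dogs 1. None was called without the Doberman pinscher, the Jack Russel Terrier, the Miniature Schnauzer, the Chinese Crested, the Bulldog terrier, the Poodle or the rat terrier, with the fitted values of all tested chromosome 21 features still below 0 and with between 1 and 521 features called lower in the whole table. Without the Pomeranian, the Jack Russel Terrier, the Miniature Schnauzer or the rat terrier, chr21_81 did not pass the filter and was not tested. The number also moved with the tool and with the libraries: limma-voom called 6 of 10 (5.39% of all features), DESeq2 without the low-count filter 15 of 44 (5.58%), edgeR without the 4 marked libraries 14 of 17 (4.58%) and without the 3 libraries of low TMM factor 6 of 8 (4.14%). In the deposited log2 values limma called 3 of 6 (6.64%), in a model with scent code and weight class but no batch term. A batch correction already made in those values was not counted in its degrees of freedom. With log2 weight as the term edgeR called 1 of 10 (0.444%), and without the batch term 0 of 10 (0.235%). None of these settings called a chromosome 21 feature higher. Apart from the reported fit and the slope on log2 weight, chr21_18 was called in 11 of the 25 settings that tested it, and chr21_81 in 14 of 20. The slope on log2 weight called chr21_81 (edgeR adjusted p = 0.0285) and not chr21_18 (edgeR adjusted p = 0.0723).

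**Figure D2:**
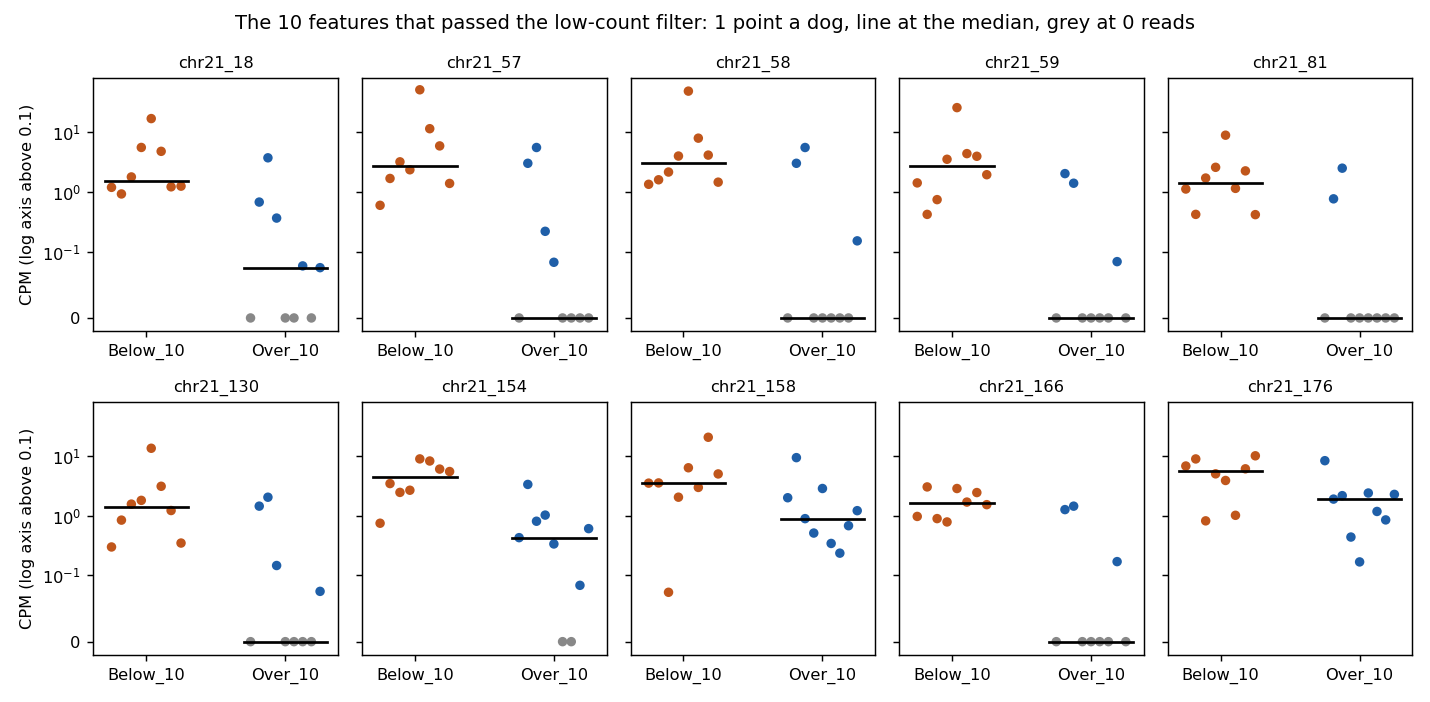
CPM of the 10 features that passed the low-count filter (1 panel each, log axis above 0.1 CPM), with 1 point per dog ordered by weight within its class, the line at the median and grey points at 0 reads. For chr21_81, 7 of the 9 Over_10 dogs sit at 0, while chr21_158 and chr21_176 have reads in every dog.

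The neighbouring numbers chr21_57, chr21_58 and chr21_59 were among the features most abundant in the Pomeranian. For chr21_57 the Below_10 values were 0.598, 2.78 and 51.6 CPM, and the Over_10 dogs had 0 reads in 5 of 9, with 3.03 CPM in the Cocker Spaniel and 5.57 CPM in the Labrador of age 0.5. For chr21_58 the Below_10 values were 1.35, 3.08 and 49.0 CPM, with 6 Over_10 dogs at 0 and the same 2 dogs at 3.03 and 5.57 CPM. For chr21_59 they were 0.421, 2.74 and 25.9 CPM, with 6 Over_10 dogs at 0 and a highest value of 2.03 CPM. The fitted log2 changes were -2.52 ± 1.13, -2.81 ± 1.12 and -2.90 ± 1.01 (SE), none of which passed (edgeR adjusted p = 0.177, 0.130 and 0.0899).

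Feature chr21_166 was even among small dogs, at 0.785, 1.61 and 3.03 CPM. In large dogs it had 0 reads in 6 of 9, 0.170 CPM in the German shepherd, 1.26 CPM in the Cocker Spaniel and 1.44 CPM in the Labrador of age 0.5. Its log2 change of -2.90 ± 1.05 (SE) did not pass in edgeR (adjusted p = 0.101). Feature chr21_130 had 0.299, 1.39 and 13.5 CPM in Below_10 dogs, 0 reads in 5 Over_10 dogs and at most 2.04 CPM in the others (log2 change -2.18 ± 1.03, edgeR adjusted p = 0.198). For chr21_67, the fifth feature by mean level, the Below_10 values were 0.209, 0.839 and 33.3 CPM and 6 Over_10 dogs had 0 reads, with 2.80 CPM in the Cocker Spaniel and 3.23 CPM in the young Labrador, but it did not pass the filter. Each of these 3 features followed the same outline, with the Cocker Spaniel and the young Labrador among the small dogs.

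A trio of high running numbers kept reads in large dogs. Feature chr21_154 had 0.747, 4.48 and 8.95 CPM in Below_10 dogs and 0, 0.428 and 3.34 CPM in Over_10 dogs, with 2 dogs at 0. Its log2 change of -2.61 ± 1.10 (SE) did not pass (edgeR adjusted p = 0.153). Feature chr21_158 ranged widely in both classes, with 0.0745, 3.53 and 20.6 CPM in Below_10 and 0.236, 0.892 and 9.39 CPM in Over_10 dogs. The lowest of all 17 dogs was the Jack Russel Terrier, a small dog with a single read of it, and the highest the Dachsund. Its log2 change was -0.55 ± 1.09 (SE; edgeR adjusted p = 0.786), and in batch 2 the difference was 1.16, towards the large dogs, through the Cocker Spaniel. For chr21_176 the log2 change was -1.89 ± 0.76 (edgeR adjusted p = 0.133), and the Beagle with 8.35 CPM was higher than 6 of the 8 Below_10 dogs.

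These features therefore made up much of what was left in large dogs. Together, chr21_158 and chr21_176 gave 2.996% (Pomeranian) to 39.0% (Poodle) of the chromosome 21 sum in Below_10 dogs, with a median of 23.8%. In the Over_10 dogs the share was 91.2% in the Beagle, 85.7% in the Doberman pinscher, 84.2% in the Bulldog terrier, 81.8% in the English pointer, 69.7% in the Labrador of age 6 and 60% in the German shepherd. It was 28.4% in the Cocker Spaniel, 21.3% in the Basset hound and 5.39% in the Labrador of age 0.5. Their summed level had medians of 10.3 CPM in Below_10 and 3.02 CPM in Over_10 dogs, whereas the other 42 features had medians of 35.1 and 1.02 CPM. The pair was chosen after its values had been seen, and the difference between it and the other 42 was not tested.

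**Figure D3:**
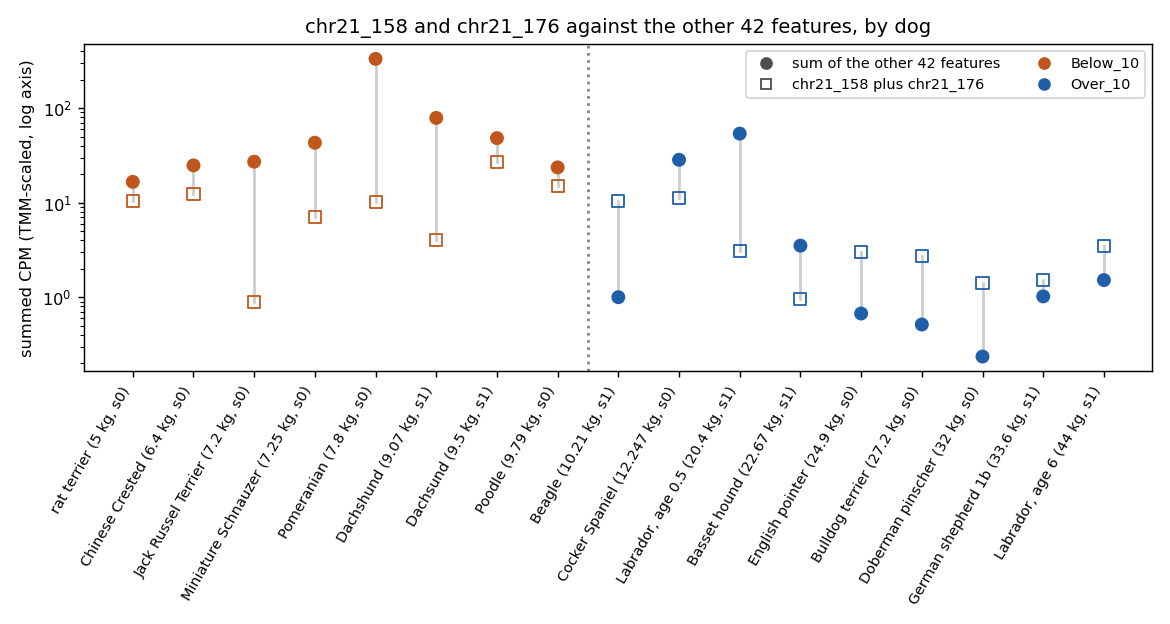
Summed CPM on a log axis of chr21_158 plus chr21_176 (open squares) and of the other 42 chromosome 21 features (filled circles) in each dog, ordered by weight class and body weight, with the dotted line between the classes. The circles lie above the squares in all 8 Below_10 dogs and below them in 6 of the 9 Over_10 dogs.

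The 34 features below the filter were thinly read, and the median over all 44 was 132 reads summed over the 17 dogs. Fitted without the filter, edgeR called 2 of the 44 lower (1.75% of 27482 features), chr21_81 and chr21_115, and 42 of the 44 had fitted values below 0. Feature chr21_115 had 0.224, 0.929 and 6.49 CPM in Below_10 dogs and 0 reads in 6 of the 9 Over_10 dogs (log2 change -3.47 ± 0.84, edgeR adjusted p = 0.0349 without the filter). Feature chr21_105, singled out after its values were seen, had reads in 8 of the 9 Over_10 dogs, though at a median of 0.219 CPM against 0.436 CPM in Below_10 dogs. This Over_10 median is below the level that a count of 0 allows in some of these libraries.

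Detection at equal depth was also tested feature by feature, since it does not need the filter. Fisher's exact test over the 4991 features detected in 2 to 15 dogs called 0 of them between weight classes, and 0 of the 34 members among them (two-sided, smallest adjusted p 0.121). At an unadjusted p under 0.05 there were 15 members, all 15 less often detected in Over_10 dogs, against 6.59% of all tested features that were so in this direction. For chr21_18, chr21_57, chr21_58, chr21_59 and chr21_166 detection was 8 of 8 Below_10 against 2 of 9 Over_10 dogs (Fisher's exact p = 0.00226, adjusted p = 0.121 for each), and for chr21_81 it was 7 of 8 against 1 of 9 (exact p = 0.00337, adjusted p = 0.135). All 34 had the smaller share of detections in Over_10 dogs, compared with 49.2% of all tested features. The features share their libraries, so these are not 34 separate observations. Without the 4 marked libraries, 6 members were called less often detected in Over_10 dogs, against 1.9% of all tested features.

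The scent comparison asks whether the level of these features differs between the scent codes. None of the 10 tested features was called by edgeR, and none had an unadjusted p under 0.05 (smallest 0.0687, chr21_59), while 0 of 16202 features were called in the table and 288 had such a p. DESeq2 likewise called 0 of the 44. With limma-voom 0 of 10 were called, but chr21_57, chr21_58 and chr21_59 had an unadjusted p under 0.05, each lower in scent code 1. Of all 16202 features 309 had such a p in limma-voom. Without the 4 marked libraries edgeR called 0 of 17, with 5 at an unadjusted p under 0.05, each higher in scent code 1. Of all 16705 features 1386 had such a p in that fit. The summed level had its lowest, median and highest values at 1.65, 32.6 and 342 CPM in the 10 dogs of scent code 0 and at 2.55, 11.4 and 82.7 CPM in the 7 dogs of scent code 1. These ranges overlap. In the fit 8 of 10 features were below 0 in scent code 1 (median log2 change -1.65, against 53.1% of all features below 0), but the direction turned with the setting. The median was 2.95 without the 4 marked libraries, 1.77 without the 3 libraries of low TMM factor and 0.10 without the batch term.

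In the Over_10 class both codes held high and low dogs, but in the Below_10 class they did not. Among the Below_10 dogs, both of scent code 1 had 74.9 CPM (Dachsund) and 82.7 CPM (Dachshund), and the 6 of scent code 0 had 26.9 to 342 CPM with a median of 38.0 CPM. Of scent code 0, only the Pomeranian was above these 2 dogs, and with so few dogs this was not tested within the class. Among the Over_10 dogs each code held 1 of the 2 high dogs, the Cocker Spaniel in scent code 0 and the Labrador of age 0.5 in scent code 1, and the medians were 3.48 CPM (n = 4) and 5.01 CPM (n = 5). The interaction of scent code and weight class was called for 0 of the 10 features by edgeR (smallest unadjusted p 0.187) and for 0 of the 44 by DESeq2, with 936 of 16202 features at an unadjusted p under 0.05 in edgeR. By detection, 0 of 34 features were called between scent codes with Fisher's exact test, with 1 at an unadjusted p under 0.05, chr21_152, which was detected in 7 of 10 dogs of code 0 and 1 of 7 of code 1 (exact p = 0.0498). Of all 4991 features 1.64% had such a p, and 0.681% of all had it with fewer detections in code 1. The share of dogs was smaller in code 1 for 22 of the 34 members and for 52.3% of all features. With another random thinning, or at a minimum of 1 or 10 reads, 0 members had an unadjusted Fisher's exact p under 0.05.

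The features varied together from dog to dog within the small class. Among the 27 features detected in at least 4 Below_10 dogs, Spearman's rho of their levels over these 8 dogs had a median of 0.50 over 351 pairs, and 282 pairs were above 0. All pairs share the same 8 libraries and their scaling, so the values are a description. Pairs that include chr21_158 or chr21_176 had a median rho of -0.14 over 51 pairs, and the other 300 pairs a median of 0.55. In Over_10 dogs the 15 features detected in at least 2 dogs had a median rho of 0.71 over 105 pairs, in dogs of which most had 0 reads of many features and the Cocker Spaniel and the young Labrador the highest levels of most.

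Co-variation of neighbouring and distant numbers overlapped, and the order of their medians differed between the weight classes. In Below_10 dogs 6 pairs had numbers 1 apart, with a median rho of 0.63 and a range from 0.38 (chr21_51 and chr21_52) to 0.98 (chr21_57 and chr21_58). The 40 pairs with numbers 2 to 10 apart had a median of 0.54, and the 305 pairs over 10 apart a median of 0.48 with a range from -0.85 to 0.98. Distant pairs such as chr21_43 with chr21_67 and chr21_17 with chr21_40 also reached 0.98. In Over_10 dogs the medians were 0.65 for 2 pairs 1 apart, 0.69 for 13 pairs 2 to 10 apart and 0.71 for 90 pairs over 10 apart. Over the 44 features the running number had a rho of -0.07 with mean level, of -0.11 with the number of Below_10 dogs detected and of -0.17 with the number of Over_10 dogs detected.

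Split by number, the median of the large dogs was highest at the upper end, in the range that holds chr21_158 and chr21_176. This pair alone had a summed median of 3.02 CPM in Over_10 dogs, whereas chr21_166 in the same range had 0 reads in 6 of the 9. The 8 features from chr21_14 to chr21_47 summed to a median of 5.80 CPM in Below_10 and 0.171 CPM in Over_10 dogs, the 15 from chr21_51 to chr21_88 to 16.03 and 0.168 CPM, and the 13 from chr21_105 to chr21_150 to 5.47 and 0.286 CPM. The 8 from chr21_151 to chr21_176 summed to 20.2 and 3.36 CPM, and there the lowest Over_10 dog had 1.41 CPM where the lowest Below_10 dog had 5.81 CPM. The Labrador_Retriever_1 of age 0.5 differed in this, with 7.44 CPM there and 26.3 CPM from chr21_51 to chr21_88. In the range from chr21_51 to chr21_88 the Doberman pinscher and the Beagle had 0 reads over all 15 features. The cut points were set after the values had been seen, and the difference between ranges was not tested.

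The same measures were taken on chromosomes 18, 20 and 5, which hold features with names of the same kind. The share of features detected was 55.1% ± 17.7 (SD, n = 8) in Below_10 and 15.9% ± 24.6 (n = 9) in Over_10 dogs for chromosome 21. It was 68.8% ± 14.6 and 18.5% ± 34.6 for the 12 features of chromosome 5, 62.8% ± 14.7 and 40.99% ± 16.18 for the 45 of chromosome 18, and 75% ± 8.18 and 50% ± 19.3 for the 16 of chromosome 20. In the edgeR fit all 10 tested features of chromosome 21 and all 4 of chromosome 5 had values below 0 between weight classes (medians -2.71 and -2.59), whereas 11 of 21 did on chromosome 18 (median -0.29) and 7 of 9 on chromosome 20 (median -1.02). Tested features pass the filter partly through the dogs in which they are high, so these counts are a description only. Without the filter, the median CPM was lower in Over_10 dogs for most features of each chromosome. This held for 40 of 44 on chromosome 21, 39 of 45 on chromosome 18, 15 of 16 on chromosome 20 and 12 of 12 on chromosome 5. Features with 0 reads in at least 5 Over_10 dogs and in at most 1 Below_10 dog numbered 21 of 44 on chromosome 21, 7 of 12 on chromosome 5, 13 of 45 on chromosome 18 and 3 of 16 on chromosome 20, against 1.10% of all 27482 features with a read. The difference between chromosomes was not tested, and this pattern was defined after the values had been seen.

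**Figure D4:**
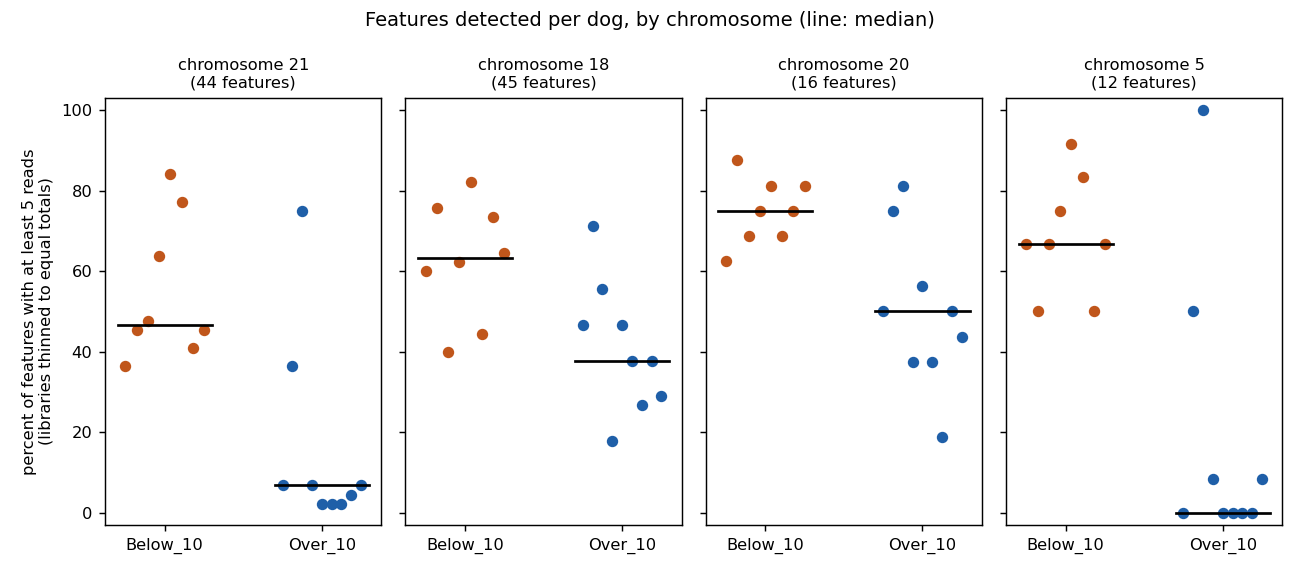
Percent of the features of chromosomes 21, 18, 20 and 5 with at least 5 reads in each dog after thinning to equal totals, by weight class, with lines at the medians. On chromosome 21 most Over_10 dogs lie near 0 and 2 lie among the Below_10 dogs, on chromosome 5 the Labrador of age 0.5 lies above all Below_10 dogs at 100%, and on chromosome 18 the medians are 63.3% and 37.8%.

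Relative to the other named features, the share of chromosome 21 also differed between dogs of one class. It made up 29.4% of the summed CPM of all 208 in the Dachshund and 26.7% in the Pomeranian, but 4.46% in the Dachsund and 5.35% in the Chinese Crested. In Over_10 dogs it lay between 1.37% (English pointer) and 22.8% (Labrador of age 0.5), with a median of 3.83% against 12.5% in Below_10 dogs. The Cocker Spaniel had a share of 5.16%, within the ranges of both classes.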

How the data were processed

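Olfactory epithelium RNA of 17 dogs was sequenced from both ends as polyadenylated RNA, per the labels' protocols. The authors deposited raw counts per feature (32912 features) and a table of log2 values (16917 features, 6 of the 44) said in its file name to be batch corrected, with no formula stated. The submitters' processing notes list STAR 2.5.3 and HTSeq, with Trim Galore 0.3.1, and name DESeq2, limma and edgeR. For build and annotation, both not given in the sources used here, nothing was assumed. No sequence of the features was used here.

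Groups came from the weight label and replicate numbers from accession order. Features were filtered with filterByExpr on scent code (minimum count 10), scaled by TMM and tested with edgeR 4.0.16 (quasi-likelihood, robust, R 4.3.3), with batch, scent and weight class as terms, 9 residual degrees of freedom, or 8 with the interaction, and Benjamini-Hochberg adjustment over all tested features at 0.05. The reported detection values used 1 random thinning. Another thinning, run as an alternative, gave 14 members at an unadjusted Fisher's exact p under 0.05 between weight classes, where the reported one gave 15. Alternatives used limma 3.58.1 and DESeq2 1.42.0. Other computations used Python 3.11.15, numpy 2.4.6, scipy 1.17.1 and pandas 2.3.3. Both tests were also run on simulated data without batch or scent effects and with independent features. Those data were simpler than these, so the runs do not show how the tests behave here. Features named in the text are those past the filter, those called, the 5 with the highest mean level, the 5 detected in most dogs and those of the first and last number, plus a few singled out after their values were seen. Members and lists were chosen with earlier results of these data known.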

Additional observations from a re-analysis of the deposited data

Results flagged for a closer look

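Of 28 sets of values, 16 held a dog set apart from the rest of its class by Dixon's ratio. The sets were 12 named features, the summed level and the number detected, each in 8 Below_10 or 9 Over_10 dogs. The ratio flags about 1 set in 20 by chance only where values are normally distributed. Levels were used as CPM without logs and are skewed, so the 16 cannot be set against that rate. Whether the same dogs stand apart on a log scale was not tested. The sets share dogs, so they are not separate observations. In Below_10 dogs the Pomeranian was the high dog in 9 sets: the summed level (342 CPM, next 82.7 CPM), chr21_14 (2.98 CPM), chr21_18 (17.0 CPM), chr21_57 (51.6 CPM), chr21_58 (49.0 CPM), chr21_59 (25.9 CPM), chr21_67 (33.3 CPM), chr21_81 (8.95 CPM) and chr21_130 (13.5 CPM). It had the highest level of all 17 dogs for 32 of the 44 features. The Dachsund stood apart for chr21_158 (20.6 CPM, next 6.36 CPM).

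In Over_10 dogs the Labrador of age 0.5 stood apart for chr21_18 (3.74 CPM), chr21_81 (2.51 CPM) and the number detected (33, next 16). The Cocker Spaniel stood apart for chr21_154 (3.34 CPM) and chr21_158 (9.39 CPM), and the Beagle for chr21_176 (8.35 CPM, next 2.40 CPM).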

How the results depend on the processing

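The count of chromosome 21 features called lower in Over_10 dogs, 2 in the reported fit, was 15 with DESeq2 (5.58% of all features called lower), 6 with limma-voom (5.39%), 1 on a slope of log2 weight (0.444%), 0 with no batch term (0.235%), 14 without the 4 libraries carrying the first-replicate mark (4.58%) and 6 without the 3 libraries with the lowest TMM factors (4.14%), against 3.61% in the reported fit. It ran from 0 to 7 when single dogs were left out, and was 2 with RLE size factors, without the low-count filter and with age as a covariate, the last chosen after seeing the data. Without the filter chr21_115 was called and chr21_18 was not (edgeR adjusted p = 0.0547). In the deposited log2 values limma, without a batch term, called 3 of 6. These settings tested different numbers of features, and beyond that the cause was not tested. The detection test called 6 without the 4 marked libraries and 0 in all other settings. No chromosome 21 feature was called higher, for scent or for the interaction in any setting run, and the 10 tested features kept their sign between weight classes in every setting that tested them. Leaving aside the slope on log2 weight, the log2 change of chr21_18 ran from -6.46 to -3.01 and that of chr21_81 from -6.85 to -2.71. The log2 difference in the summed level, the difference in the number detected and the gap between neighbouring and distant pairs moved by less than the spread they were set against. No paired analysis was possible, because each sample belongs to a single weight class and a single scent code and the labels name no pairs. Features with few reads, 34 of the 44, limit the precision.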
